A study of Mus musculus with 12 samples.

Results

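The 10 genes described here are transcripts that mark neutrophils in mouse tissue: the granule protein genes Mpo, Elane, Ltf, Camp, Ngp and Mmp8, the cytosolic S100a8 and S100a9, the secreted Retnlg, and the chemokine receptor Cxcr2. They were taken by symbol from a table of raw read counts that lists 53465 gene IDs, and all 10 were found. The table comes from RNA sequencing of whole mouse liver in 12 libraries, 3 in each of 4 groups. Control livers came from Pld1-Flox mice, whose genotype label reads WT. Knockout (KO) livers came from mice described as lacking Pld1, which encodes phospholipase D1, in hepatocytes only. The sample labels call the same genotype a knockdown. Mice of each genotype ate either normal chow or HFD, a high-fat diet, which the series description gives as 20 weeks. The Cre driver, strain, sex and age of the mice, and whether a library is 1 animal or a pool, were not stated. The p-values therefore set group differences against the spread between libraries, and part or all of that spread could be technical. They may not reflect variation between mice.

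Neutrophils are short-lived leukocytes that mature in the bone marrow and carry their antimicrobial proteins in granules filled in sequence. Primary granule genes such as Mpo and Elane are transcribed at the promyelocyte stage, secondary granule genes such as Ltf, Camp and Ngp at the myelocyte stage, and S100a8, S100a9, Retnlg and Cxcr2 rise in later cells. Resting liver holds few neutrophils, mostly in its sinusoids, and they are recruited there by CXCL chemokines that bind CXCR2.

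Library totals ranged from 18215008 to 22378180 counts. Pld1 itself averaged 10.6 ± 1.28 CPM (counts scaled to the library total; SD, n = 3) in control chow, 7.13 ± 0.624 in control HFD, 4.03 ± 0.614 in KO chow and 2.60 ± 0.575 in KO HFD, so it was lower in KO libraries on either diet. Mitochondrial genes took 7.17% to 7.50% of counts in control libraries and 5.98% to 6.76% in KO libraries. The hepatocyte marker Alb summed to 3621529 to 4208586 counts per group. Of markers that define neutrophils, Ly6g summed to 2 counts in control chow, 0 in control HFD, 18 in KO chow and 1 in KO HFD, and the granulocyte colony-stimulating factor receptor Csf3r to 150, 105, 397 and 146. Both of these genes were chosen for naming after their values were seen, from a list of 26 whose members did not all move alike. In that list Fpr1 summed to 46, 50, 134 and 95 counts and Itgb2 to 290, 323, 773 and 371 in the same order. Of its 13 tested genes, 4 were called lower and 1 higher on HFD in controls. The shares of all tested genes were 18.9% lower and 18.8% higher. In bulk tissue, fewer cells of a type and less RNA per cell cannot be told apart.

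The 10 transcripts were scarce, and their total was set apart by group. Together they held 986 counts in the 3 control chow libraries, 90 in control HFD, 3014 in KO chow and 368 in KO HFD. The summed level was 16.9 ± 0.496 CPM (SD, n = 3) in control chow, 1.38 ± 0.159 in control HFD, 49.6 ± 1.48 in KO chow and 6.32 ± 0.266 in KO HFD. No library of one group overlapped another group: the ranges were 16.4 to 17.3, 1.24 to 1.55, 48.2 to 51.1 and 6.03 to 6.55 CPM. The HFD sum was thus 12.2-fold below the chow sum in controls and 7.84-fold below it in KO livers, and the KO livers were 2.94-fold higher than controls on chow and 4.59-fold higher on HFD. The smallest p that an exact two-sided permutation test of 3 against 3 libraries allows is 0.1.

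**Figure D1:**
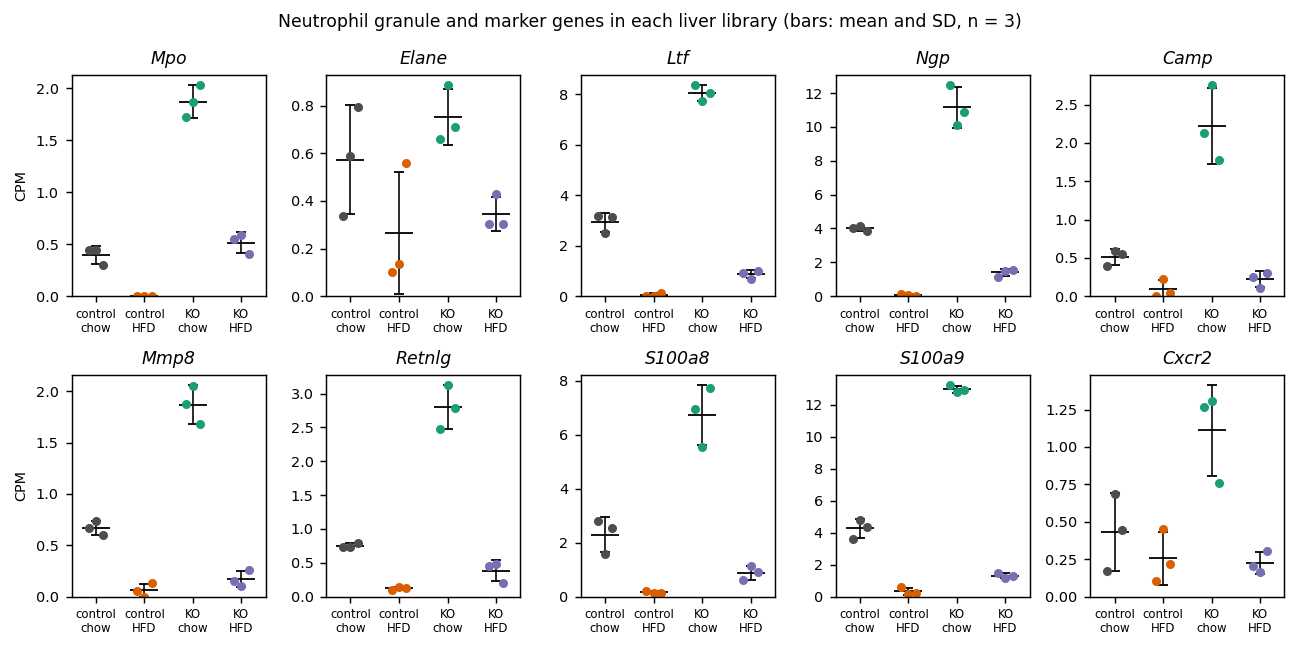
Level of each of the 10 neutrophil genes in each of the 12 liver libraries, in CPM, with points for libraries coloured by group. KO chow libraries sit highest for most genes and control HFD libraries lowest, while Elane and Cxcr2 show overlapping groups.

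Sequences upstream of 4 of the genes are shown. They are Ngp and Ltf, which moved together, and the primary granule genes Mpo, called in every comparison, and Elane, called in none. Whether the sequences relate to these values was not tested. Each is the 250 bases before the annotated start, 5′ to 3′ on the gene's strand, from RefSeq on build GRCm38.p6. Capitals mark matches on either strand to TTNNGNAA, a C/EBP-type word, and to AGGAAG, the core word of PU.1 and other ETS factors. Ngp, a cathelicidin-related secondary granule gene, is at chr9:110419558-110419807, plus strand. Ltf, which encodes lactoferrin, is at chr9:111019042-111019291, plus strand. Mpo, which encodes myeloperoxidase, is at chr11:87793534-87793783, plus strand. Elane, which encodes neutrophil elastase, is at chr10:79886062-79886311, plus strand.
Ngp: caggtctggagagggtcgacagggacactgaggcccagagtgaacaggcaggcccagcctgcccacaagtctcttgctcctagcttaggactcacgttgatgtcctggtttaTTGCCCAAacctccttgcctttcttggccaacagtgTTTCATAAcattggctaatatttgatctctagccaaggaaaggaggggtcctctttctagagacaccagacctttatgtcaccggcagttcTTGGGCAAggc
Ltf: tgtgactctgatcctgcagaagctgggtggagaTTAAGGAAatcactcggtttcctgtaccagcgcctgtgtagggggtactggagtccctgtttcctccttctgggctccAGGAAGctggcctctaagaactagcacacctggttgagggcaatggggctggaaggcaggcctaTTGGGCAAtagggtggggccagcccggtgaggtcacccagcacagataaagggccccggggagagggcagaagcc
Mpo: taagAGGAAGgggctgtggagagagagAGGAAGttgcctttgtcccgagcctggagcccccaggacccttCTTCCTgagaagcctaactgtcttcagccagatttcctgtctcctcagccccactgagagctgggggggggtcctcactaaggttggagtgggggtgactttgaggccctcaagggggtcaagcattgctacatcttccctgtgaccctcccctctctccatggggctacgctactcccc
Elane: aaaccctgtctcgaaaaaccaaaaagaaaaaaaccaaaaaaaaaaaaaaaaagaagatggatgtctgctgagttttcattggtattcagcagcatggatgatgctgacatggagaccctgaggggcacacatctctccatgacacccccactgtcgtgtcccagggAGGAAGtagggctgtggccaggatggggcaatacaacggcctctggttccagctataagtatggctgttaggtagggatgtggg

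The word TTGGGCAA occurs on the strand shown in both the Ngp and the Ltf stretch, with its first base 11 and 75 bases before the start. Ngp also holds its reverse complement, TTGCCCAA, with the first base 138 bases before the start. Neither the Mpo nor the Elane stretch holds TTNNGNAA, and Mpo holds AGGAAG at 3 places and Elane at 1. Over the 10 genes, TTNNGNAA was present in 6 and AGGAAG in 7, against 36.8% and 29.5% of 32851 promoter windows of the same length. The RUNX word TGTGGT was present in 1 of 10, that of S100a9, against 14% of windows. These matches describe letters only.

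The first question was how HFD altered the neutrophil transcripts in control livers. Of the 10 genes, 8 fell on HFD by edgeR's quasi-likelihood test at an adjusted p under 0.05, none rose, and Elane and Cxcr2 did not pass. Across all 14778 genes tested, 18.9% were called lower. All 8 also fell at least 2-fold, against 3.09% of all genes, and in the same 8 the HFD libraries lay wholly below the chow libraries, against 23.7% of all genes. The median log2 fold change of the 10 genes was -3.54, and that of all tested genes was -0.0012. Every one of the 10 genes passed the filter on low counts, but Camp, Mpo and Cxcr2 passed it only through the KO chow libraries. Retnlg and Mmp8 passed it only through the chow libraries of both genotypes, where they were high. Their calls on diet are therefore not independent of the filter.

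Among secondary granule genes, Ngp was counted 72, 85 and 78 times in the control chow libraries and 2, 2 and 0 times in the control HFD libraries. All chow libraries were far above all HFD libraries. Its log2 fold change was -5.89 (SE 0.36, adjusted p = 2.36e-15), and the ratio of summed levels was 65.2, with a 95% counting interval of 25.1 to 241. Without control HFD replicate 3, the library with no Ngp count, the log2 fold change was -5.30.

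Ltf, whose product binds iron, was counted 57, 51 and 63 times on chow and 0, 0 and 3 times on HFD. All 3 of its HFD counts came from replicate 3. The ratio of summed levels was 63.3 with a counting interval of 21.3 to 310, and edgeR gave a log2 fold change of -5.81 (SE 0.43, adjusted p = 3.12e-13). Without that replicate the HFD group is at 0, so the fitted value of -8.87 is no bound.

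Camp, which encodes the mouse cathelicidin, was counted 7, 12 and 11 times on chow and 0, 5 and 1 times on HFD. The groups did not overlap, though the HFD libraries differed among themselves. Camp's log2 fold change was -2.40 (SE 0.63, adjusted p = 0.00264), and -4.13 without control HFD replicate 2, which held 5 of its 6 counts.

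Of the primary granule genes, 1 was called and 1 was not. Mpo, which makes hypochlorous acid in the phagosome, was counted 8, 9 and 6 times on chow and 0 times in each HFD library, a level of 0.395 ± 0.0849 CPM (SD, n = 3) against a limit of 0.0462 CPM that 3 counts over the group would give. Set against that limit it was 8.51-fold lower on HFD, and the lower 95% counting limit of the ratio was 6.38. It was called by edgeR. Elane, a serine protease gene, was counted 6, 12 and 16 times on chow and 2, 3 and 13 times on HFD. HFD replicate 3 lay within the chow range. The log2 fold change of -1.06 (SE 0.51) had an adjusted p of 0.107, and without that replicate Elane was called, at -2.21 with an adjusted p of 0.00693.

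Genes of later cells also fell. S100a8 and S100a9 form calprotectin, a calcium- and zinc-binding complex that is also made by monocytes. S100a8 was counted 50, 32 and 51 times on chow and 4, 3 and 3 times on HFD, and S100a9 65, 98 and 88 times on chow and 11, 4 and 5 times on HFD. For both genes every HFD library was below every chow library. Their log2 fold changes were -3.84 (SE 0.38, adjusted p = 3.77e-10) and -3.77 (SE 0.26, adjusted p = 6.62e-14); without control HFD replicate 1, which held 11 of the 20 S100a9 counts, the latter was -4.39.

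Retnlg, a resistin-like secreted protein gene of mature mouse neutrophils, was counted 13, 15 and 16 times on chow and 2, 3 and 3 times on HFD. Mmp8, the neutrophil collagenase gene, was counted 12, 15 and 12 times on chow and 1, 0 and 3 times on HFD. Both sets of libraries were apart, with log2 fold changes of -2.55 (SE 0.48, adjusted p = 5.14e-05) for Retnlg and -3.31 (SE 0.60, adjusted p = 3.31e-05) for Mmp8, the latter -4.47 without control HFD replicate 3. Cxcr2 was counted 3, 14 and 9 times on chow and 2, 10 and 5 times on HFD, and the groups overlapped. Its log2 fold change of -0.75 (SE 0.55) had an adjusted p of 0.306, and without control HFD replicate 2 it was -1.40 and still not called.

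The second question was whether the KO changed these transcripts on HFD, a comparison that shares the control HFD libraries with the diet comparison in controls. Of the 10 genes, 6 rose, none fell, and Elane, Camp, Cxcr2 and Mmp8 did not pass. Of all tested genes 16.7% were called higher, and 1.18% were called at least 2-fold higher, as all 6 were. In the same 6 genes the KO HFD libraries lay wholly above the control HFD libraries, as in 21.1% of all genes. The median log2 fold change was 1.81, against -0.0073 over all genes.

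Ngp was counted 23, 28 and 31 times in KO HFD libraries, where control HFD libraries held 0 to 2. It rose by a log2 fold change of 4.38 (SE 0.46, adjusted p = 1.99e-09), a ratio of 22.8 with a counting interval of 8.59 to 85.9; without control HFD replicate 3 the log2 fold change was 3.79. Ltf was counted 18, 13 and 20 times, against 3 counts in all 3 control libraries. Its ratio was 18.9 (counting interval 6.13 to 94.9) and its log2 fold change 4.07 (SE 0.57, adjusted p = 5.91e-07), and the control value rests on control HFD replicate 3, without which the fitted value was 7.14. Mpo was counted 11, 11 and 8 times where controls held 0. Set against 3 counts in controls it was 11.1-fold higher, with a lower 95% counting limit of 8.52 (edgeR adjusted p = 4.29e-06).

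S100a8 was counted 12, 21 and 18 times and S100a9 29, 22 and 25 times in KO HFD livers, above every control HFD library. Their log2 fold changes were 2.46 (SE 0.46, adjusted p = 7.62e-05) and 2.06 (SE 0.33, adjusted p = 8.39e-06), the latter 2.69 without control HFD replicate 1. Retnlg was counted 9, 9 and 4 times, above the 2 to 3 counts of controls, with a log2 fold change of 1.57 (SE 0.55, adjusted p = 0.0263). The call was lost when any 1 of control HFD replicates 1, 2 or 3 or KO HFD replicates 1 or 2 was left out (adjusted p from 0.0541 to 0.105).

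Camp was counted 5, 2 and 6 times and Mmp8 3, 2 and 5 times in KO HFD livers, and both overlapped the control range. Camp's log2 fold change of 1.22 (SE 0.75) had an adjusted p of 0.23; without control HFD replicate 2 it was 2.95 and was called (adjusted p = 0.0339). Mmp8's was 1.39 (SE 0.80, adjusted p = 0.192), or 2.56 without control HFD replicate 3 and still not called. Elane was counted 6, 8 and 6 times and Cxcr2 4, 3 and 6 times, both within the control range. Their log2 fold changes were 0.31 (SE 0.57) and -0.22 (SE 0.63), with adjusted p-values of 0.72 and 0.83. The Elane ratio of 1.24 had a counting interval of 0.622 to 2.48, which includes both no difference and a 2-fold one.

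On chow, KO livers held more of 9 of the 10 transcripts than control livers, and only Elane did not pass. Of the 9, Camp, Mpo and Cxcr2 passed the filter on low counts only through the KO chow libraries. Their calls here are therefore not independent of the filter. The background was 15.8% of all tested genes called higher, and 3.68% at least 2-fold higher, as all 9 were. In those 9 genes no KO library overlapped a control library, as in 20.9% of all genes. The median log2 fold change was 1.52, against -0.0026 over all genes.

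Counts in KO chow livers were 246, 217 and 214 for Ngp and 165, 166 and 159 for Ltf, and every one exceeded every control chow count. Ngp rose by 1.47 (SE 0.14, adjusted p = 3.97e-10) and Ltf by 1.46 (SE 0.17, adjusted p = 2.26e-08) on the log2 scale. Camp was counted 42, 59 and 35 times and Mpo 34, 40 and 40 times, against 7 to 12 and 6 to 9 in controls. Both rose by more than Ngp and Ltf in point estimate, by 2.11 (SE 0.36, adjusted p = 1.8e-05) and 2.23 (SE 0.35, adjusted p = 5.2e-06), a difference between genes that was not tested.

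Among genes of later cells, S100a8 was counted 137, 119 and 152 times and S100a9 261, 274 and 255 times in KO chow livers. They rose by 1.56 (SE 0.20, adjusted p = 8.99e-08) and 1.60 (SE 0.14, adjusted p = 2.46e-11), with ratios of 2.95 and 3.02. Retnlg, at 49, 67 and 55 counts, rose by 1.89 (SE 0.28, adjusted p = 1.79e-06), and Mmp8, at 37, 44 and 33 counts, by 1.48 (SE 0.33, adjusted p = 0.000566). Cxcr2, at 25, 28 and 15 counts, rose by 1.32 (SE 0.43, adjusted p = 0.0171), a call lost without control chow replicate 1 or KO chow replicate 1 or 2 (adjusted p 0.111, 0.0667 and 0.0790). Elane, at 13, 19 and 14 counts, overlapped the control chow range and its log2 fold change was 0.38 (SE 0.43, adjusted p = 0.562).

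HFD lowered the transcripts in KO livers as well. Here 9 of 10 fell by edgeR's test, against 18.1% of all genes called lower and 4.23% called at least 2-fold lower, as the 9 were. Among them Camp, Mpo and Cxcr2 passed the filter on low counts only through KO chow, and Retnlg and Mmp8 only through the chow groups. The calls of these genes are therefore not independent of the filter. The libraries did not overlap for any of the 10 genes, Elane included, against 22.8% of all genes. The median log2 fold change was -2.95, against -0.0026 over all genes. Ngp fell by 2.98 (SE 0.17, adjusted p = 6.55e-16), Ltf by 3.19 (SE 0.21, adjusted p = 2.69e-14), Camp by 3.28 (SE 0.42, adjusted p = 9.9e-08) and Mpo by 1.85 (SE 0.33, adjusted p = 3.46e-05). S100a9 fell by 3.31 (SE 0.17), S100a8 by 2.93 (SE 0.23), Retnlg by 2.87 (SE 0.32), Mmp8 by 3.40 (SE 0.42) and Cxcr2 by 2.29 (SE 0.49), with adjusted p from 3.01e-17 to 0.000316. Elane's log2 fold change was -1.12 (SE 0.48) with an adjusted p of 0.0657; it was called (0.0310) when the KO groups were fitted alone and (0.0454) without control HFD replicate 3.

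**Figure D2:**
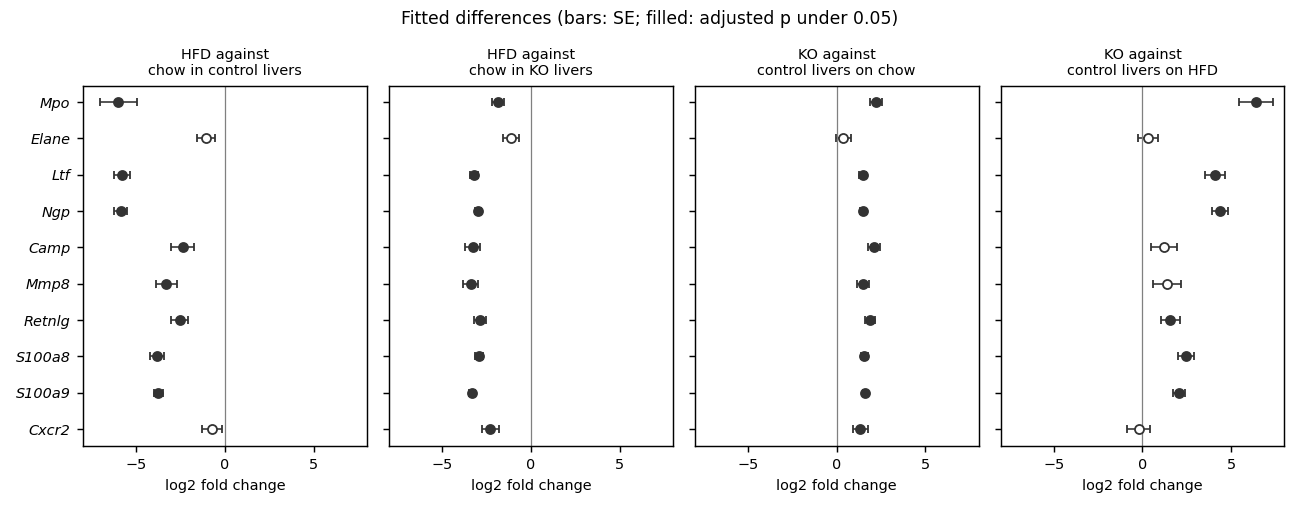
Log2 fold change of each gene in the 4 pairwise comparisons, with points for the edgeR estimate and bars for the standard error. Mpo has 0 counts in control HFD, so its points in both comparisons with that group depend on the fit and are not bounds; Elane and Cxcr2 lie closest to 0 in most comparisons.

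Whether the diet effect itself differed by genotype was tested with the interaction of diet and genotype. It was called higher for 3 of 10 genes, Ngp, Ltf and Mpo, against 15.2% of all tested genes, and lower for none, against 14.7%. The count of 3 is too small to set apart from these shares. For Ngp the log2 interaction was 2.91 (SE 0.54, adjusted p = 7.27e-05) and for Ltf 2.62 (SE 0.66, adjusted p = 0.00242), meaning a smaller fall on HFD in KO than in control livers. Without control HFD replicate 3 these values were 2.32 and 5.68, the latter against a group at 0. For Mpo the fitted value of 4.17 (SE 1.26, adjusted p = 0.0118) rests on 0 counts in control HFD and depends on the prior count. Mpo also passed the filter on low counts only through KO chow, a group of this test, so its call is not independent of the filter. The other 7 genes were not called. S100a8 had an interaction of 0.90 (adjusted p = 0.211) and S100a9 of 0.46 (adjusted p = 0.388), while Camp had -0.89 (adjusted p = 0.535) and Cxcr2 -1.54 (adjusted p = 0.136).

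Ordered by mean level, 8 of the 10 genes ran from KO chow through control chow and KO HFD to control HFD, against 6.74% of all tested genes. Ngp, Ltf, S100a8, S100a9 and Retnlg did so with no overlap between neighbouring groups, against 0.893% of all genes. In Camp and Mmp8 only the KO HFD and control HFD libraries overlapped, and in Elane all neighbours did. For Mpo, KO HFD stood above control chow and overlapped it, at 0.516 ± 0.0974 against 0.395 ± 0.0849 CPM (SD, n = 3). For Cxcr2, control HFD stood above KO HFD and overlapped it, at 0.256 ± 0.177 against 0.222 ± 0.0741 CPM. All 10 means were highest in KO chow, as were 27% of all genes, though Camp, Mpo and Cxcr2 passed the filter only through that group.

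Per kilobase of exon, S100a9 had the highest level of the 10, at 24.9 CPM per kb in KO chow livers. S100a8 followed at 9.71, Ngp at 9.13, Retnlg at 4.72, Camp at 2.93 and Ltf at 2.34 CPM per kb. Mmp8 at 0.770, Elane at 0.764, Mpo at 0.547 and Cxcr2 at 0.365 CPM per kb were the lowest.

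The make-up of the neutrophil counts differed between groups. S100a8 and S100a9 together made up 38.9% of the counts of the 10 genes in control chow, 33.3% in control HFD, 39.7% in KO chow and 34.5% in KO HFD. The secondary granule genes Ltf, Camp and Ngp made up 44.2%, 14.4%, 43.2% and 39.7% in the same order. With only 90 counts in control HFD, the exact 95% interval there was 7.92% to 23.4%, below the intervals of the other 3 groups, and it covers counting error only. The primary granule genes Mpo and Elane made up 5.78%, 20.0%, 5.31% and 13.6%. The interval in KO HFD, 10.3% to 17.5%, lay above those in control chow (4.41% to 7.43%) and KO chow (4.54% to 6.17%), a gap beyond counting error. It is a gap of Mpo and Elane only, not of primary granule genes as a class. Prtn3, a primary granule gene outside the 10, held 636, 8, 2852 and 197 counts in the same order. Mpo and Elane together held 57, 18, 160 and 50. No share that includes Prtn3 was computed.

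In control HFD the primary share was all Elane, and single libraries set it. Elane and Cxcr2 supplied 18 and 17 of the 90 counts there, 20.0% and 18.9%, but replicate 3 held 13 of the Elane counts and replicate 2 held 10 of the Cxcr2 counts. The Elane share was 9.26% without replicate 3, and the Cxcr2 share 11.7% without replicate 2. The secondary granule share in control HFD ranged from 10% to 16.7% with each library left out in turn, and the primary share in KO HFD from 12.4% to 15.1%. Leaving out replicate 1, which held 11 of the 20 S100a9 counts, took the share of S100a8 and S100a9 in control HFD to 22.7%. These shares without a library were added after the data were seen.

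**Figure D3:**
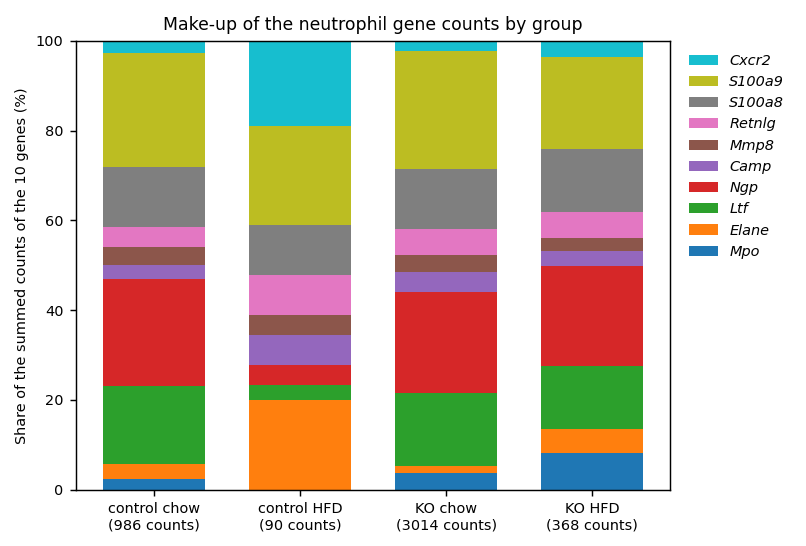
Share of the summed counts of the 10 genes that each gene supplies, in percent, as 1 stacked bar per group with the summed count under it. Ngp and Ltf take a small share in control HFD, where Elane and Cxcr2 take 20.0% and 18.9% of 90 counts, or 9.26% without replicate 3 and 11.7% without replicate 2.

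Elane lies beside another serine protease gene of primary granules, Prtn3 (proteinase 3), on chromosome 10, yet their values stood far apart. Prtn3 was counted 190, 237 and 209 times in control chow, 2, 3 and 3 in control HFD, 920, 985 and 947 in KO chow and 58, 70 and 69 in KO HFD. The groups were separate in the order shown by Ngp and Ltf, with log2 fold changes of -6.39 (SE 0.21, adjusted p = 1.06e-22) for HFD in controls, 4.71 (SE 0.28, adjusted p = 2.73e-15) for KO on HFD and 2.11 (SE 0.07, adjusted p = 1.44e-21) for KO on chow. In KO chow livers Prtn3 stood at 27.1 CPM per kb and Elane at 0.764. Exons of Plppr3 overlap Prtn3 on the other strand and the counting is not stated to use strand; Plppr3 itself held 817 counts over the 12 libraries.

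Other neutrophil genes moved in part with the 10. Their counts stand against 18.9% of all tested genes lower and 18.8% higher on HFD in controls, 16.7% higher and 15.6% lower with KO on HFD, and 15.8% higher and 15.3% lower with KO on chow. Of 16 other granule protein genes, 13 were tested: 6 fell and 0 rose on HFD in controls, 7 rose and 0 fell with KO on HFD, and 9 rose and 1 fell with KO on chow. Their median log2 fold changes were -0.85, 0.42 and 1.30. Lcn2, a siderophore-binding protein that hepatocytes also make, averaged 38.4 ± 1.65 CPM (SD, n = 3) in control chow, 21.4 ± 1.19 in control HFD, 442 ± 11.9 in KO chow and 72.2 ± 2.96 in KO HFD. The gene that fell with KO on chow was Serpinb1a, an inhibitor of neutrophil serine proteases, at 16.5 ± 1.38 CPM in control and 2.81 ± 0.651 CPM in KO livers.

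Of 26 other surface and signalling genes of neutrophils, 13 were tested: 4 fell and 1 rose on HFD in controls, 4 rose and 2 fell with KO on HFD, and 9 rose and 1 fell with KO on chow. Their medians were -0.09, 0.35 and 1.29. Cd177, a neutrophil surface glycoprotein, fell on HFD in controls, with a log2 fold change of -3.35 (SE 0.61, adjusted p = 3.41e-05), and with KO on HFD it was not called (1.40, SE 0.81, adjusted p = 0.199). G0s2, a lipolysis inhibitor gene that hepatocytes also express, rose on HFD in controls by 1.30 (SE 0.04, adjusted p = 5.42e-25). Il1b, the interleukin-1 beta gene, fell on HFD in controls by 1.85 (SE 0.25, adjusted p = 1.89e-07), and with KO on HFD its log2 fold change was -0.06 (SE 0.32, adjusted p = 0.914).

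Of 10 granulopoiesis transcription factors, 7 were tested, and 2 rose and 0 fell on HFD in controls while 5 rose and 1 fell with KO on chow. Their median log2 fold changes were 0.22 and 0.77. Cebpe, which drives secondary granule genes in the marrow, averaged 13.2 ± 0.879 CPM in control chow and 18.1 ± 1.70 in control HFD (log2 fold change 0.46, SE 0.09, adjusted p = 0.000124), opposite to Ngp, Ltf and Camp. Of 13 chemoattractants and growth factors, 5 were tested, and 4 rose and 1 fell with KO on chow, with a median of 1.87. Cxcl1, a CXCR2 ligand, averaged 6.85 ± 0.822 CPM in control chow, 10.6 ± 0.833 in control HFD, 36.3 ± 1.64 in KO chow and 11.9 ± 0.741 in KO HFD. It rose with KO on chow by 2.40 (SE 0.09, adjusted p = 2.39e-21) and on HFD in controls by 0.63 (SE 0.10, adjusted p = 4.83e-06).

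Some markers of other blood and liver cells also differed between these groups. Relative to the control chow mean, the summed CPM of the 10 neutrophil genes was 0.0733 to 0.0919 in control HFD, 2.86 to 3.03 in KO chow and 0.358 to 0.389 in KO HFD. The erythroid sum was 0.599 to 0.629, 1.15 to 1.19 and 0.758 to 0.844, but the heme synthesis gene Alas2 supplied 58.0% of it in control chow and 71.9% in control HFD. The globin gene Hbb-bs spanned more, at 38.7 ± 1.48 CPM (SD, n = 3) in control chow, 14.5 ± 1.00 in control HFD, 73.9 ± 4.07 in KO chow and 39.1 ± 3.05 in KO HFD. Hbb-bs fell on HFD in controls by 1.42 on the log2 scale and rose by 1.43 with KO on HFD and 0.93 with KO on chow (adjusted p = 2.95e-18, 4.38e-18 and 1.62e-15).

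The monocyte sum was 0.831 to 0.865, 1.15 to 1.20 and 0.924 to 0.970, and it is in effect a value of Fn1, a fibronectin gene that hepatocytes also express, which supplied 97.7% to 99.0% of it. Ccr2, a chemokine receptor of monocytes, averaged 1.27 ± 0.128, 2.37 ± 0.327, 4.31 ± 0.964 and 1.84 ± 0.0983 CPM in control chow, control HFD, KO chow and KO HFD. Ccr2 rose on HFD in controls (log2 fold change 0.90, adjusted p = 0.00196) and with KO on chow (1.76, adjusted p = 3.55e-08). On HFD in controls it was the only gene of the 10 monocyte genes called higher, while 3 were called lower. It does not stand for the list. The shares of all tested genes there were 18.8% higher and 18.9% lower. The Kupffer cell and macrophage sum was 1.08 to 1.10, 2.43 to 2.52 and 1.53 to 1.58, so it did not drop in control HFD.

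For single markers, the shares of all tested genes were 18.9% lower and 18.8% higher on HFD in controls. They were 16.7% higher and 15.6% lower with KO on HFD, and 15.8% higher and 15.3% lower with KO on chow. Beside these, 7 of 8 tested erythroid genes fell on HFD in controls (median log2 fold change -1.32), and 6 rose and 2 fell with KO on HFD (median 1.48). All 11 Kupffer cell and macrophage genes rose with KO on chow (median 1.29). Of 10 monocyte genes, 3 fell and 1 rose on HFD in controls, and 7 rose and 1 fell with KO on chow (medians -0.14 and 1.12). Of 6 tested B and plasma cell genes 1 fell on HFD in controls, as did 1 of 3 platelet genes and 1 of 2 T and NK cell genes, counts too small to set apart from the 18.9% of all genes. The hepatocyte list had 7 of 8 genes lower on HFD in controls and 8 of 8 higher with KO on HFD (medians -0.27 and 0.37). All 6 genes of the list of cycling precursors rose on HFD in controls, and 5 fell with KO on HFD. Of 10 eosinophil, basophil and mast cell genes 1 was tested and was not called, and Epx, Ear6 and Cpa3 were at 0 in every library. The part of these cells, of blood in the tissue and of the lower mitochondrial share of KO libraries in the neutrophil values was not tested.

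**Figure D4:**
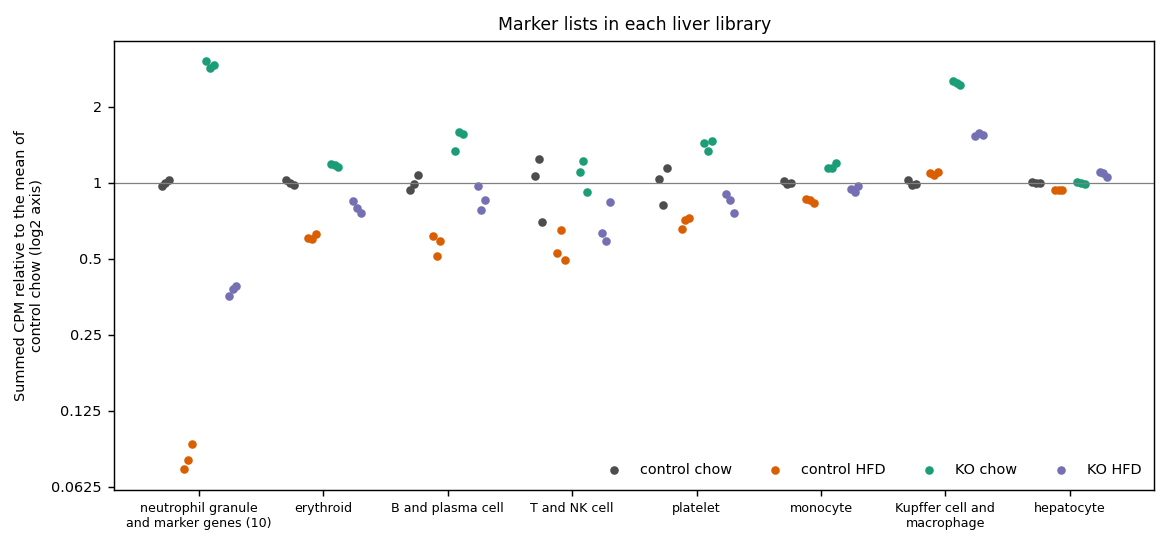
Summed CPM of each marker list in each library, relative to the control chow mean, on a log2 axis. The 10 neutrophil genes span from 0.0733 in control HFD to 3.03 in KO chow, more widely than the other sums drawn. Single genes weigh heavily in several of those sums. Fn1 makes up nearly all of the monocyte sum and Alas2 38.7% to 71.9% of the erythroid sum. Itga2b makes up 66.2% to 88.2% of the platelet sum, Cd4 24.4% to 56.6% of the T and NK cell sum and Jchain 28.6% to 55.2% of the B and plasma cell sum.

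Outside the neutrophil lists, the genes whose levels most resembled the mean profile of the 10 were Fga, Cyb561, Fgb, Atp11a, Fgg and Saa2, with Pearson r of 0.989 to 0.995 over the 12 libraries. Fga, Fgb and Fgg encode the chains of fibrinogen and Saa2 a serum amyloid A, which hepatocytes secrete in the acute-phase response. Of 11436 candidate genes, 282 reached r of 0.9 and 105 reached 0.95. The 12 points share 4 groups. Saa2 averaged 259.9 ± 4.77 CPM (SD, n = 3) in control chow, 35.8 ± 0.375 in control HFD, 2035 ± 16 in KO chow and 128.9 ± 3.07 in KO HFD, the group order of Ngp and Ltf. Fga had the same order over a smaller span, at 5560 ± 32.2, 3516 ± 15.9, 9207 ± 68.7 and 4393 ± 90.2 CPM.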

How the data were processed

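Liver RNA was harvested with TRIzol, per the labels' protocols, and the authors deposited 1 table of unnormalised gene counts, recognised by its whole numbers and unequal column totals. The submitters' processing notes list Bowtie 0.12.2 and mm8. No source used here states the counting program, its annotation or its use of strand, so reads of overlapping or near-identical genes could have been counted in either. GENCODE M21 gave symbols for 53274 of 53465 IDs and exon lengths, and the promoter sequences are RefSeq's on GRCm38.p6.

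In edgeR 4.0.16, filterByExpr kept 14778 genes and TMM set the scaling. A single quasi-likelihood model with 4 group means was fitted to all 12 libraries in R 4.3.3, with Benjamini-Hochberg adjustment over all tested genes and a threshold of 0.05. CPM values use the TMM-scaled totals. SE is the log2 fold change divided by the root of the F statistic. Counting intervals are exact at 95%, a group at 0 is set against 3 counts over the group, and both cover counting error only. The fit was tested on simulated data. Alternatives used limma 3.58.1, DESeq2 1.42.0, other filters and scalings, fixed spreads, a replicate block and leaving out each library. The common biological coefficient of variation was 3.95%. Libraries of a group differed by more than sampling noise: the median chi-square over genes was 1.59 to 2.34 times its expectation, and each library counted as 1 replicate.

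The 10 genes and the marker lists were chosen with earlier results of these data known. All 10 are named throughout. From each other list up to 4 genes with the smallest p in HFD against chow in controls or KO against control on HFD could be named. Ly6g, Csf3r, Fpr1, Itgb2, Alb, Epx, Ear6 and Cpa3 were named outside this rule. Genes alike were the 6 with the highest r of log2(CPM + 1) among genes with a mean of at least 1 CPM.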

Additional observations from a re-analysis of the deposited data

Results flagged for a closer look

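The fall on HFD differed between the genotypes for 3 of the 10 neutrophil genes by edgeR's interaction test. Of all 14778 tested genes 15.2% were called higher and 14.7% lower, 4411 in all. The count of 3 is therefore no result about the 10 as a group. The log2 interaction was 2.91 for Ngp (adjusted p = 7.27e-05) and 2.62 for Ltf (adjusted p = 0.00242). Both were lower in 3 of 3 HFD libraries than in every chow library in each genotype. For Mpo it was 4.17 (adjusted p = 0.0118), a fitted value set against 0 counts in all 3 control HFD libraries, which depends on the prior count and is no bound. Mpo passed the filter on low counts only through KO chow, so its call is not independent of the filter.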

How the results depend on the processing

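Low counts limit these results: the 10 genes held 24 to 36 counts per control HFD library, so values set against that group turn on single libraries. The counts of called genes (8, 6, 9 and 9 in the comparisons of diet in controls, KO on HFD, KO on chow and diet in KO livers, and 3 for the interaction) were the same with no filter, upper quartile scaling, DESeq2 size factors, the Wald test of DESeq2, the length and GC trend removed, and the replicate block. Fitting the 2 groups alone gave 6 of 7, 4 of 4, 9 of 10 and 10 of 10 genes tested, the lower counts being of genes that no longer passed the filter, and limma-voom lost Retnlg on HFD (adjusted p = 0.0537). A mean of 5 CPM in a group left 4 genes, called 4, 4, 4 and 4 times with 2 interactions, since fewer genes were tested. Those 4, Ngp, Ltf, S100a8 and S100a9, reached that mean only in KO chow. Their calls against that group are therefore no independent check. Leaving out 1 library gave 8 to 9, 5 to 6, 8 to 9, 9 to 10 and 3 to 3, and all genes called ranged from 4907 to 5657, 4139 to 4828, 3977 to 4676, 4756 to 5462 and 3934 to 4184. With the coefficient of variation set to 20%, 1194, 534, 931, 1102 and 510 of all genes were called, in place of 5571, 4784, 4604, 5412 and 4411, and 8, 5, 9, 9 and 3 of the 10. At 40% these were 259, 72, 90, 216 and 22, and 7, 4, 2, 8 and 0 of the 10; the cause is the larger spread assumed. Without S100a8 and S100a9 the summed levels were 10.3, 0.901, 29.8 and 4.14 CPM in control chow, control HFD, KO chow and KO HFD.

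Signs turned only for values that were called under neither setting. The interaction became 0.21 for Elane and 0.10 for Mmp8 with limma-voom. Leaving out 1 library, the KO effect on HFD ranged from -0.026 to 1.47 for Elane and -0.55 to 0.44 for Cxcr2, and the interaction from -0.41 to 1.10 for Elane, -1.38 to 0.84 for Camp and -0.64 to 1.08 for Mmp8; the cause was not tested. Removing the length and GC trend of each library moved the calls of all genes from 2475 higher and 2309 lower to 3013 and 1750 with KO on HFD, from 2341 and 2263 to 1919 and 3060 with KO on chow, from 2732 and 2680 to 3943 and 2015 with diet in KO livers, and from 2241 and 2170 to 3245 and 1473 for the interaction.

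Same-numbered libraries did not deviate together (correlations from -0.0148 to 0.0159). No shared shift by number was thus detected, which cannot exclude that the libraries were paired. The replicate block called 5515, 4741, 4544, 5357 and 4331 of all genes and changed no call of the 10.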
